A study of Homo sapiens with 42 samples.

Results

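The 500 widest domains of histone H3 lysine 27 acetylation (H3K27ac) in NCI-H661 cells are described here, out of 32505 H3K27ac regions found on chromosomes 1 to 22. The regions were made from the H3K27ac islands of both H661 libraries, an island being a stretch that the program EPIC2 called as enriched over input: the bases that lay in an island of each library were kept, and pieces within 1 kb of each other were joined. The members were chosen by width, measured on the H3K27ac of H661, so their H3K27ac in H661 is given as a description and no test was run on it. The members were 9.4 to 178.8 kb wide with a median of 12.9 kb, against a median of 0.9 kb over all other regions, a set that includes the next 500 by width. They made up 1.54% of the regions and held 16.0% of their summed length, 8.87 Mb in all. The last member was 9400 bp wide. Of the 12 regions of that width 4 were kept, in the order of the chromosomes, and the first region left out had the same 9400 bp.

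H661 is an established line from a lung large cell carcinoma that expresses DPPA2 and DPPA4, and it was profiled unmodified. NCI-H1299 is an established lung adenocarcinoma line that does not normally make these proteins. The H1299 cells were a stable pooled line that carries doxycycline-inducible FLAG-tagged DPPA2 and V5-tagged DPPA4. They were given 2 µg/mL doxycycline for 7 days (DOX) or water for the same time (CTRL), and the DOX and CTRL cells share the transgenes. The series holds 42 ChIP-seq samples, 38 ChIP libraries and 4 inputs, with 2 libraries for each histone mark in each group and single libraries of KDM2A and SUZ12. Whether replicates were grown as separate cultures is not given in the labels, and p-values therefore measure the spread between libraries, which can be technical.

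H3K27ac is laid down by the acetyltransferases p300 and CBP at active promoters and enhancers. Most acetylated stretches are short and sit at a single promoter or enhancer, whereas clusters of enhancers around genes that define a cell type can merge into long domains, often called stretch enhancers or super-enhancers. DPPA2 and DPPA4 are a pair of nuclear proteins of the early embryo and of pluripotent cells. KDM2A is a lysine demethylase that removes H3K36 dimethylation and binds unmethylated CpG dinucleotides. SUZ12 is a core subunit of the Polycomb repressive complex PRC2, and H2AK119ub is the ubiquitin mark set by its partner complex PRC1.

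The DPPA2/4 peaks inside the widest domains lay on very different sequence, and 4 of them are shown because the results below turn on them. Each line gives the 200 bases centred on the DPPA2 summit of replicate 1, on the plus strand of hg38, with every CpG in capitals. The first is among the peaks of the highest DPPA2 and DPPA4 fold enrichment in any member, and the others come from members described below.
RYR1 exon (chr19:38565207-38565406): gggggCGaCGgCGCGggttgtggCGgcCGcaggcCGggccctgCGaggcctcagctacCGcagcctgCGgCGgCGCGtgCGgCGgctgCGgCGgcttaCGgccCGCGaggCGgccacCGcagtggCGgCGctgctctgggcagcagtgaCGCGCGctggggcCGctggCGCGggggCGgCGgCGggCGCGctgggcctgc
NKX2-1 (chr14:36517323-36517522): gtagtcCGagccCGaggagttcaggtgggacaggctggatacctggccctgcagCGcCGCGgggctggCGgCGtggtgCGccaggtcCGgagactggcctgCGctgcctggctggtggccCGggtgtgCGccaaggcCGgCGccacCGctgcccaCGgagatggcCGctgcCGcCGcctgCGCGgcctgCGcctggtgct
HOXC8 to HOXC6 (chr12:54014530-54014729): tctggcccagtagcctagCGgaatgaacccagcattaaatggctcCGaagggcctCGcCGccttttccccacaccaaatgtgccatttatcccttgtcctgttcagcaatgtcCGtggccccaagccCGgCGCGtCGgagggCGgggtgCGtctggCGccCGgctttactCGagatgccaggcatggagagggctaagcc
upstream of SALL4 (chr20:51899954-51900153): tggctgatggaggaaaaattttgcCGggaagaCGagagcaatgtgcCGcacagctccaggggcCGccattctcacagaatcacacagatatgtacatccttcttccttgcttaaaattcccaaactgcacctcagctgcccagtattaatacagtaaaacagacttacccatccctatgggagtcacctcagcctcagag
The RYR1 window lay in a coding exon of RYR1, the calcium release channel of skeletal muscle, 52.6 kb from the nearest protein-coding start site, and held 35 CpGs. The NKX2-1 window fell in a coding exon of that gene, where it overlaps an intron of SFTA3, and held 22 CpGs. The HOXC window lay in an intron of HOXC6 and held 14 CpGs. The window upstream of SALL4 lay between protein-coding genes, 97.5 kb from the nearest protein-coding start site, and held only 4 CpGs.

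Across all members the same windows were CpG-rich. The 563 DPPA2/4 peaks in members had a median of 14 CpGs in 200 bases, against 20 for the 8150 peaks outside members and 3 for all 44218 windows of 200 bases that tile the members. At least 10 CpGs were present in 69.1% of peak windows in members, 86.7% of those outside members and 10.7% of the tiling windows. Peaks in members that lay away from protein-coding promoters had a median of 10 CpGs, and those at promoters 20.

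The members were not spread evenly over the genome. Chromosome 20 held 85, chromosome 19 held 76 and chromosome 5 held 54, together 215 of 500, whereas chromosome 13 held none. On chromosome 20 the members were 3.69% of all H3K27ac regions and on chromosome 19 3.4%, against 1.54% over all autosomes. Grouping members less than 1 Mb apart gave 170 groups, and 20 groups of 5 or more held 243 members. The largest group, at chr19:37861101-41348400, held 50 members with 1677 kb of acetylated domains within 3.49 Mb. The next largest were 29 members at the end of the long arm of chromosome 20, 19 members at chr20:50107901-52106100, 19 members at the start of the short arm of chromosome 5, and 18 members at chr14:34436701-36526100.

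Several of the same places were deep in the input, the sequenced chromatin with no antibody, which follows the number of DNA copies in the cells and the presence of repeats. Input reads per kb of H3K27ac island, set to 1 at the median of all regions (5.71 reads per kb), had a median of 1.33 in members, 1.15 in the next 500 regions and 1 in all other regions. Of the members, 198 (39.6%, 95% Wilson interval 35.4% to 44%) had at least 1.5 times the median input, against 27.2% of the next 500 and 19.6% of all other regions. Members in the chromosome 14 group had a median of 4.56 times, those in the chromosome 19 group 2.73 times and those in the chromosome 5 group 1.71 times. Of the chromosome 20 groups, the one at chr20:50107901-52106100 had 1.76 times, while the larger one at the end of the long arm had 1.38 times, close to the median of all members. The narrower regions in the groups on chromosomes 14, 19 and 5 stood at 3.71, 2.10 and 1.75 times, so the excess was not limited to the wide domains. Of the 20 widest members, 16 had 1.5 times the median input or more. Whether the input depth set the width of an island call was not tested, and several results below are given for members on both sides of 1.5 times.

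**Figure D1:**
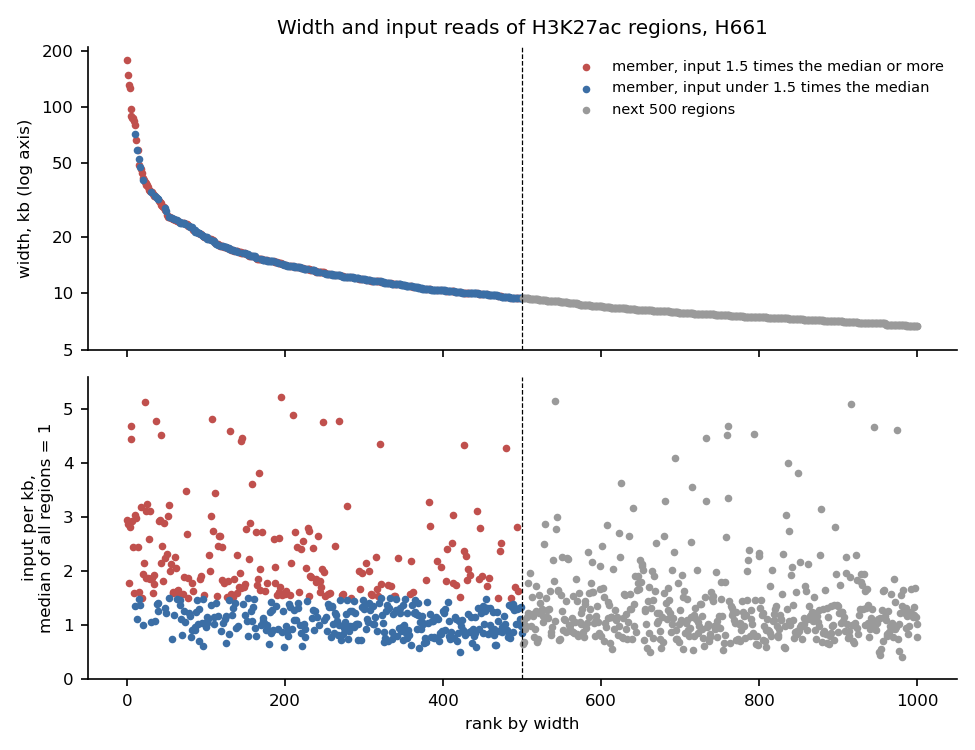
Width (upper panel, kb, log axis) and input reads per kb (lower panel, median of all regions set to 1) of the 1000 widest H3K27ac regions of H661 by rank. Each point is a region, the dashed line marks the last member, and the few points above 50 kb are mostly red, with input of 1.5 times the median or more.

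**Figure D2:**
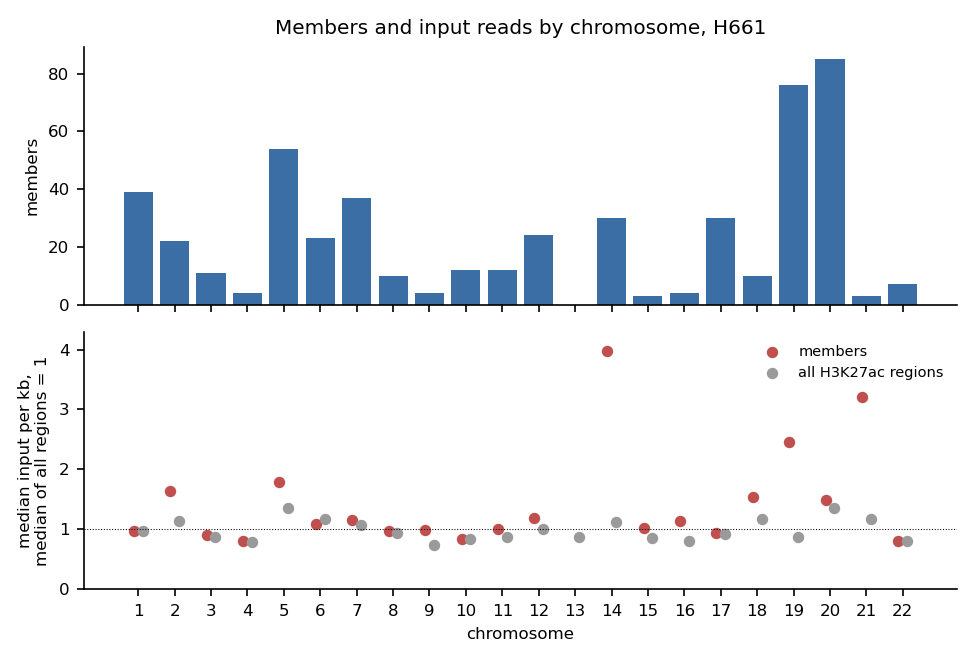
Number of members on each chromosome (upper panel, bars) and the median input per kb of members and of all H3K27ac regions (lower panel, median of all regions set to 1). Members stand well above all H3K27ac regions of their chromosome on 14, 19 and 21, at 3.97, 2.45 and 3.20 times the median. Chromosome 21 holds only 3 members.

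The acetylation itself was unequal among members. Islands with a log2 fold over input above 1 covered at least 50% of the length in both libraries in 457 members. In 19 members such islands covered under 10% of the length in at least 1 library. These 19 included the fifth widest member, 98.4 kb around the start of SNX6, a sorting nexin of the retromer complex, where they covered 23.4% in replicate 1 and 8.74% in replicate 2 and the input was 4.68 times the median. A 39.8 kb member over SPTSSA, a subunit of serine palmitoyltransferase, had 0% and 33.7% with an input of 5.12 times. All 19 had at least 2.27 times the median input, and 11 of them lay on chromosome 14.

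A short repeat filled much of 3 members, 2 of them among these 19. They lay at chr21:10699201-10711500, chr21:10718601-10734000 and chr17:26936001-26945600, and held 498, 495 and 285 matches to GGAATG (either strand) per 10 kb, while the median over all members was 5.39 per 10 kb. In these the repressive mark H3K9me3 covered 61.8%, 57.8% and 33.3% of the length in both replicates, and the input was 3.20, 3.81 and 4.28 times the median. The 200 bases at the centre of the first show the repeat, with each match in capitals.
member on chromosome 21 (chr21:10705251-10705450): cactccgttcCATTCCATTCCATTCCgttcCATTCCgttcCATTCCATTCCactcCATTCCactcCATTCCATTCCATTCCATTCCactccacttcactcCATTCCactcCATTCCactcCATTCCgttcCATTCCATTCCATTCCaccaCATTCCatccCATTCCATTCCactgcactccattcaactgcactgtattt
The study removed blacklisted regions from its own analyses, and no such filter was applied here.

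The widest member of all, 178.8 kb at chr19:39334201-39513000, held the starts of 10 protein-coding genes, the most of any member. They include ZFP36, which destabilises mRNAs with AU-rich elements, PAF1 and SUPT5H, both of which act in transcription elongation, RPS16, a ribosomal protein, and DLL3, an inhibitory Notch ligand known from neuroendocrine lung tumours. The domain held 14 DPPA2/4 consensus peaks and 12 KDM2A peaks, the most of either in any member, and H3K36me3, the mark of transcribed gene bodies, covered 64% of it. Its input was 2.95 times the median. The second, 149.1 kb, spanned ACTN4, an actin crosslinker, with MAP4K1, EIF3K and CAPN12, and had 9 DPPA2/4 peaks and 1 KDM2A peak. The fourth, 126.4 kb, held LGALS4, ECH1, HNRNPL, SIRT2 and NFKBIB among others.

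Other wide members covered 1 or a few genes. An 89.9 kb member on chromosome 14 held the start of NFKBIA, the inhibitor of NF-kappaB, and H3K4me1, a mark of enhancers, covered 77.8% of it. An 87.7 kb member around PAK4, a kinase of the cytoskeleton, had H3K4me1 over 88.0%. An 80.0 kb member on chromosome 19 held the starts of SERTAD1 and SERTAD3, which encode regulators of E2F-dependent transcription, and a 66.6 kb member beside it that of PLD3, a lysosomal nuclease. A 72.0 kb member at chr20:31539901-31611900 contained ID1, an inhibitor of basic helix-loop-helix factors, with 10 DPPA2/4 peaks and an input of 1.34 times the median. The 59.2 kb HOXC member at chr12:53973401-54032600 covered HOXC10, HOXC9, HOXC8 and HOXC6 and the long noncoding RNA HOTAIR, with an input of 1.12 times the median.

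**Figure D3:**
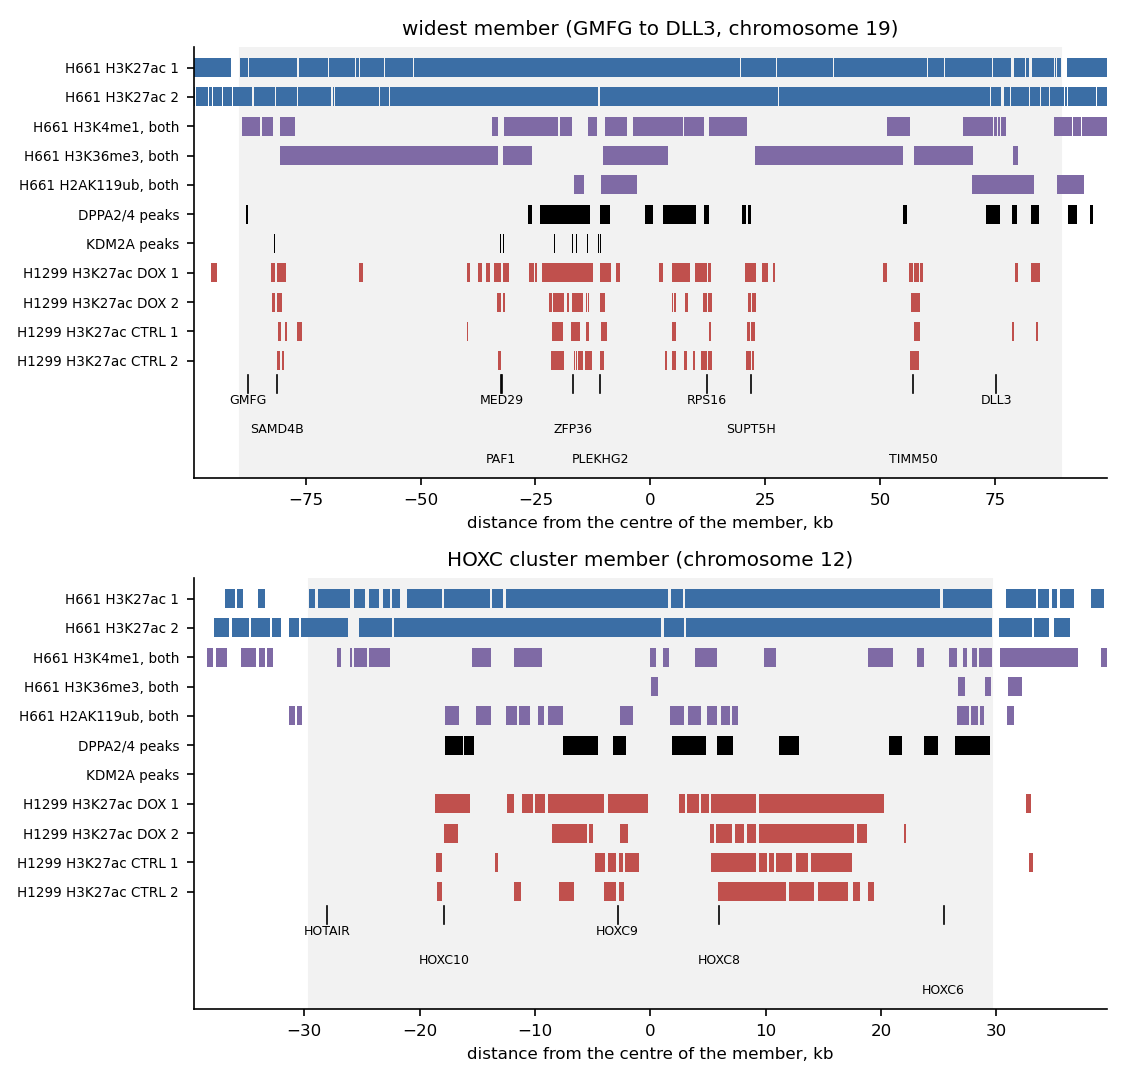
Features of the widest member (upper) and of the HOXC member (lower) by distance from the centre of the member in kb, with the member shaded. Bars mark islands or peaks of each track, and the ticks at the bottom mark start sites. H661 H3K27ac fills both domains, and the H1299 islands cover 9.62% of the upper and 30.2% of the lower in DOX replicate 2.

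Some of the widest domains held no protein-coding start site. The third widest, 132.2 kb at chr20:51844001-51976200, lay 41.5 kb from the start of SALL4, a zinc finger factor of pluripotent and fetal cells. H3K4me1 covered 73.8% of it in both replicates and H3K36me3 1.21%. SALL4 itself began inside another member of 35.1 kb. Members of 84.7 and 48.7 kb lay near ZNF217, a zinc finger oncogene of the chromosome 20 amplicon in other cancers, which has its start in a further member of 35.7 kb. H3K4me1 covered 67.1% of the first of these and 72.3% of the second.

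Over all members, 237 (47.4%, interval 43.1% to 51.8%) held a protein-coding start site, against 43.8% of the next 500 and 23% of all other regions. The 370 protein-coding start sites in members came to 41.7 per Mb, against 73.7 per Mb in the next 500 and 182 per Mb in all other regions. The wider domains thus held more genes each but fewer per length. Of the 263 members with none inside, 127 overlapped the body of a protein-coding gene, and the nearest start was a median of 41.3 kb away.

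The genes fell into several of the lists examined, with 1.94% of all 19111 autosomal protein-coding genes starting in a member as the background. The lists were chosen with earlier results of these data known, so their shares are a description and not independent of the data. Of 60 developmental transcription factors 5 did so (8.33%, interval 3.61% to 18.1%): HOXC6, HOXC10, DLX1, DLX2 and NR2F1. The interval treats genes as separate draws, though HOXC6 and HOXC10 began in the same member and DLX1 and DLX2 are neighbours. NR2F1, a nuclear receptor of neural and cancer dormancy programmes, began in a 35.1 kb member with 3 DPPA2/4 and 2 KDM2A peaks. Of 32 oncogenes and cell cycle genes 6 did so (18.8%, interval 8.89% to 35.3%). They were the cyclin genes CCND3 and CCNE1, E2F1, a driver of S phase genes, the survival kinases AKT1 and AKT2, and BCL2L1, an inhibitor of apoptosis. CCNE1 and AKT2 had inputs of 2.61 and 3.24 times the median, while AKT1 had 0.78 times. In an H3K27ac region of any width began 84.4% of the oncogene and cell cycle list. For the developmental factors this share was 33.3%, and for all protein-coding genes 46.3%.

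Among 36 chromatin regulators measured 5 began in a member: PCGF2 of PRC1, the H3K27 demethylase KDM6B, the H3K4 methyltransferase genes KMT2B and SETD1B, and ARID1A of the BAF complex. Of 29 cytoskeleton and adhesion genes 4 did, ACTN4, LMNA, ANXA2 and PLEC. Of 31 AP-1 and immediate early genes 3 did, JUNB, MAFK and the ERK phosphatase gene DUSP6. Of 30 genes of TGF-beta and BMP signalling 2 did, ID1 and ID3. Of 29 mesenchymal genes 2 did, VIM and the EMT factor gene ZEB2. In an H3K27ac region of any width began 88.9%, 86.2%, 77.4%, 66.7% and 37.9% of these lists, in the order given. The share of all protein-coding genes was 46.3%, so most of these lists were acetylated more often than all genes at any width. Of 19 long noncoding RNAs 3 did, MALAT1, NEAT1 and HOTAIR, against 1.21% of all lncRNA genes. In a region of any width began 52.6% of these RNAs, against 16.4% of all lncRNA genes. The lists of Hippo and TEAD targets, pluripotency genes and neuroendocrine genes gave 1 each, AMOTL2, SALL4 and DLL3.

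Other lists had no gene in a member. None of 23 epithelial identity genes, 14 squamous and basal markers, 29 receptor tyrosine kinases, 38 Wnt genes or 20 haematopoietic genes began in one. In some H3K27ac region of H661 began 30.4%, 14.3%, 34.5%, 42.1% and 10% of these 5 lists, below the 46.3% of all protein-coding genes. The intervals of these 5 shares reached 14.3%, 21.5%, 11.7%, 9.18% and 16.1%, all above the background of 1.94%, so a count of 0 in lists of this size does not set them apart from all genes. As a look at marker genes, acetylation within 1500 bp of the start sites was present in both H661 libraries at 11 of the 23 epithelial and 15 of the 29 mesenchymal genes. It was present at 10 of 23 lung lineage, 2 of 14 squamous and basal, 4 of 16 neuroendocrine and 2 of the 20 haematopoietic genes. In H1299 DOX 6 epithelial and 12 mesenchymal genes had it, and in CTRL 4 and 9. No share of all genes at this distance is given, so these counts do not by themselves name a cell type.

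The lung lineage list gave 2 of 23 genes, AGER and NKX2-1. AGER, a receptor made by alveolar type I cells, began in a 20.1 kb member that holds 4 other starts, among them PBX2. NKX2-1, the lineage factor of lung and thyroid, began in a 23.6 kb member at chr14:36502501-36526100 that stood apart from most. H2AK119ub covered 98.7% of it in both replicates, whereas neither H3K4me1 nor H3K36me3 covered any base in both. It held 5 SUZ12 peaks, 5 DPPA2/4 peaks and 2 KDM2A peaks, and H3K27ac islands with log2 fold above 1 covered 80.1% and 99.2% in the 2 libraries. Its input was 3.48 times the median. In H1299 it had an island over 1.27% of its length in DOX replicate 1 and none in DOX replicate 2 or in either CTRL library.

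Members also carried 28 miRNA genes in 22 domains, and 25 of them matched the RefSeq table for GRCh38.p14. The arms below are shown with their seed, bases 2 to 8, in capitals, because they come from the clusters with several well-known miRNAs.
miR-196a-5p: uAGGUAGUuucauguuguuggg
miR-23a-3p: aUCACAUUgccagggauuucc
miR-27a-3p: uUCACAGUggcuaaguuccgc
miR-24-3p: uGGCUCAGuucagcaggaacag
miR-25-3p: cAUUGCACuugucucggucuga
miR-93-5p: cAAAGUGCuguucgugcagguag
miR-106b-5p: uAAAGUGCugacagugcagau
miR-196a-5p is made from MIR196A2 in the HOXC member, and is known to target HOX mRNAs. MIR23A and MIR27A lie in a 20.4 kb member on chromosome 19, whose edge runs through MIR24-2 so that only part of miR-24-3p is inside, and the 3 arms shown have different seeds. MIR25, MIR93 and MIR106B lie together in a 16.8 kb member on chromosome 7 within MCM7. There miR-93-5p and miR-106b-5p share the seed AAAGUGC and miR-25-3p has another. The miRNA levels were not measured in these samples.

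DPPA2/4 consensus peaks, those found in both DPPA2 and both DPPA4 libraries with more than 25% mutual overlap, were present in 260 members (52%, interval 47.6% to 56.3%). The share was 37.6% in the next 500 and 16.2% in all other regions. Per length, with any overlap counted, the order was the reverse. The 563 peaks in members came to 63.5 per Mb (exact Poisson interval 58.4 to 69.0), against 68.3 per Mb in the next 500 (60.4 to 77.0) and 121 per Mb in all other regions (117 to 124). The intervals of members and the next 500 overlapped, while that of all other regions lay above both. These intervals, and all others given, cover counting error only. A peak counted whole in a region if any base of it lay inside. Peaks had a median width of 1450 bp in members and 1180 bp outside, above the median width of all other regions. Counting this way raises the rate per Mb most in narrow regions, and by how much was not tested. Where the input was under 1.5 times the median, members had 86.9 peaks per Mb, against 41.4 per Mb in the other members.

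Peaks were found most often in members with a start site. Of the 237 members with a protein-coding start 199 (84.0%) held a DPPA2/4 peak, against 61 of the 263 members without (23.2%). In the next 500 the 2 shares were 65.8% and 15.7%, and in all other regions 42.0% and 8.52%. Still, only 48.3% of the peaks in members lay within 1500 bp of a protein-coding start, against 59.2% in the next 500 and 71.4% in all other regions. Members with 3 or more peaks numbered 70 (14%), against 2.80% of the next 500 and 0.109% of all other regions.

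The members with most peaks were those of ZFP36 and DLL3 with 14 and of SERTAD1 and SERTAD3 with 11, followed by those of LGALS4, ID1 and HOXC with 10 each. The members of COL9A3 and ACTN4 had 9 each and that of BAHCC1 had 8. BAHCC1, a reader of H3K27 methylation, and PIM3, a kinase with 7 peaks, had inputs of 0.81 and 0.74 times the median and widths of 24 and 25.3 kb. By fold enrichment the first was the peak at COL9A3, the gene of a collagen IX chain, where DPPA2 reached 61.0 and 30.8 in replicates 1 and 3 and DPPA4 22.1 and 22 in replicates 2 and 3. At B3GALT6, a galactosyltransferase gene, the 4 folds were 46.2, 33.9, 19.2 and 20.9. At the RYR1 exon they were 50.4, 27.4, 13.7 and 16.7, with no KDM2A peak and no H1299 island over the member. SOX18, a vascular development factor, SFRP4, a secreted Wnt antagonist, and ZBTB46, a dendritic cell factor, had such peaks as well. As a whole, peaks in members were not higher than others. Their median DPPA2 fold in replicate 1 was 9.24, against 10.2 outside members, and the other 3 libraries gave 5.72 against 6.28, 5.94 against 6.28 and 5.57 against 5.96.

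KDM2A, with 3044 peaks from 1 library, marked 117 members (23.4%, interval 19.9% to 27.3%), against 14.6% of the next 500 and 6.13% of all other regions. Per Mb, again with any overlap counted, there were 19.8 peaks in members, 24.1 in the next 500 and 47.8 in all other regions. Of the DPPA2/4 peaks in members 18.3% (15.3% to 21.7%) overlapped a KDM2A peak, against 18.8% of those outside, so the intervals did not separate the 2 sets. SUZ12 was found in 11 members (2.2%, interval 1.23% to 3.90%), 1.60% of the next 500 and 2.36% of all other regions. Counted likewise, it came to 1.92 per Mb in members, 4.35 in the next 500 and 18.9 in all other regions. Of those 11 members 10 had input of 1.5 times the median or more. Besides NKX2-1 they included the members at SLC12A7, ACP7, MAP3K10 and SELENOV.

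H3K4me1 covered 44.5% of the length of members in both replicates, against 35.1% in the next 500 and 22.1% in all other regions. Replicates 1 and 2 alone gave 58.4% and 52.9% in members, against 50.5% and 44% in the next 500 and 34.2% and 31.0% in all other regions, so the lower of the members' replicates lay above the higher of either other set. In members it touched 92.0% of the regions. H3K36me3 covered 24.2% of member length in both replicates, against 12.8% in the next 500 and 11.2% in all other regions, and again the 2 replicates of the members, 34.4% and 27.8%, stood above the 22.2% and 16.7% of the next 500. Members with input of 1.5 times the median or more had 28.9% and the others 19.3%.

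H2AK119ub covered 9.47% of member length in both replicates, against 7.85% in the next 500 and 6.47% in all other regions. Its replicates differed by more than these sets did, at 13% and 23% in members. A stretch of it in both replicates was present in 213 members (42.6%), against 32.4% of the next 500 and 11.1% of all other regions, a share that rises with the width of a region. It covered at least 50% of 23 members (4.6%), against 3.8% of the next 500 and 5.15% of all other regions. Among the 23 were the NKX2-1 member, the SOX18 member at 81.9%, the COL9A3 member at 54.7% and the BAHCC1 member at 52.5%. H3K36me2 covered 5.39% of members, 5.16% of the next 500 and 4.61% of all other regions, with replicates of 8.45% and 23.7% in members. H3K9me3 covered 0.989% of members, and 12 members had it over at least 10% of their length in both replicates. Replicate 1 of H3K9me3 covered 8.88% of member length and replicate 2 covered 1.67%.

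**Figure D4:**
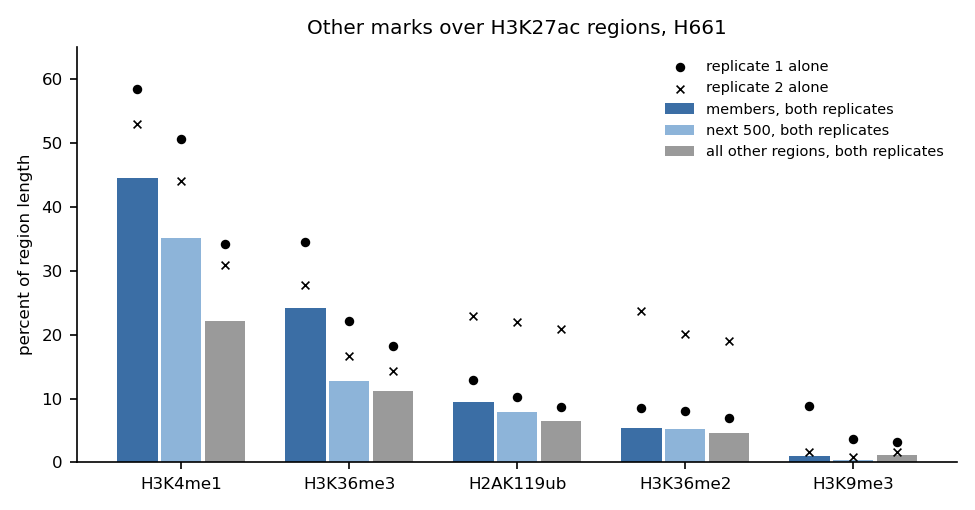
Percent of region length under 5 other marks in H661, for members, the next 500 regions and all other H3K27ac regions. Bars show bases marked in both replicates, dots and crosses each replicate alone. H3K4me1 and H3K36me3 in members stand above the other sets in both replicates, while the replicates of H2AK119ub, H3K36me2 and H3K9me3 lie farther apart than the sets.

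In sequence the members lay between their surroundings and the narrower regions. Their GC content was 50.8% and they had 23.7 CpGs per kb, against 51.2% and 26.4 in the next 500, 54.7% and 36.6 in all other regions, and 48.0% and 18.9 in windows of the same length on either side. The GC box, GGGCGG, was found 8.57 times per 10 kb in members, 10.5 in the next 500, 16.0 in all other regions and 5.42 beside the members, counted on both strands. The AP-1 motif, TGANTCA, was found 2.89 times per 10 kb in members, 3.14 in the next 500, 2.55 in all other regions and 2.70 beside them. In members with no protein-coding start it came to 3.22, and in those with one to 2.62. The TEAD motif, GGAATG, gave 7.48 per 10 kb in members, 6.80 in the next 500, 6.17 in all other regions and 6.58 beside the members. Without the 3 repeat members it gave 5.65 in members. Repeats were not taken out of the other sets, so this value has no like value beside it. The forkhead motif TGTTTAC, the E-box CAGCTG, the GATA motif AGATAA and the SOX and TCF motif ACAAAG had 1.05, 5.97, 4.35 and 6.5 matches per 10 kb in members. The values were 0.978, 6.14, 4.50 and 7.30 in the next 500, and 0.987, 6.69, 3.62 and 6.19 in all other regions. Beside the members they were 1.10, 5.16, 5.15 and 6.92. The GATA and the SOX and TCF motifs were thus denser in the next 500 and beside the members than in members. A match is a stretch of letters, not a bound site, and GGAATG can overlap itself in repeats.

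In H1299 most of the length of these domains carried no H3K27ac island with log2 fold above 1. The members themselves came from H661 islands with no such limit. With the limit, H661 islands covered 80.3% and 83.2% of member length in replicates 1 and 2, on which the members were chosen. Of the H3K27ac islands as called, 14.7% and 21.1% in DOX replicates 1 and 2 had no input read. In CTRL these were 31.3% and 30.3%, and in H661 2.56% and 4.47%. The part of depth and input in these covers was not tested. H1299 islands with log2 fold above 1 covered 29.4% and 16.6% of member length in DOX replicates 1 and 2. In CTRL replicates 1 and 2 they covered 12.2% and 13.1%. In the next 500 the values were 36.3% and 23% in DOX, against 16.9% and 19.3% in CTRL, and in all other regions 41.5% and 26.5% in DOX, against 19.9% and 21.9% in CTRL. Only 60 members (12%, interval 9.44% to 15.1%) were covered over at least 50% in both DOX libraries, against 24 (4.80%, 3.25% to 7.04%) in both CTRL libraries. Of the next 500, 18.8% were so covered in DOX and 9.20% in CTRL. These counts rest on single libraries: without DOX replicate 2 the DOX count was 146, without CTRL replicate 1 the CTRL count was 39, and with members chosen on H661 replicate 2 alone they were 16 in DOX and 6 in CTRL. An island of any size was present in all 4 libraries in 265 members (53.0%), and 110 (22%) had none in any.

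Members with input of 1.5 times the median or more in H661 were the emptier ones in H1299. The median cover of a member in this group was 6.79% and 1.21% in the DOX libraries and 0% in both CTRL libraries. In the members under 1.5 times it was 39.1% and 17.3% in the DOX libraries, against 10.1% and 10.8% in the CTRL libraries. No H1299 island was present in 67 of the 198 members with higher input (33.8%) and in 43 of the 302 others (14.2%).

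**Figure D5:**
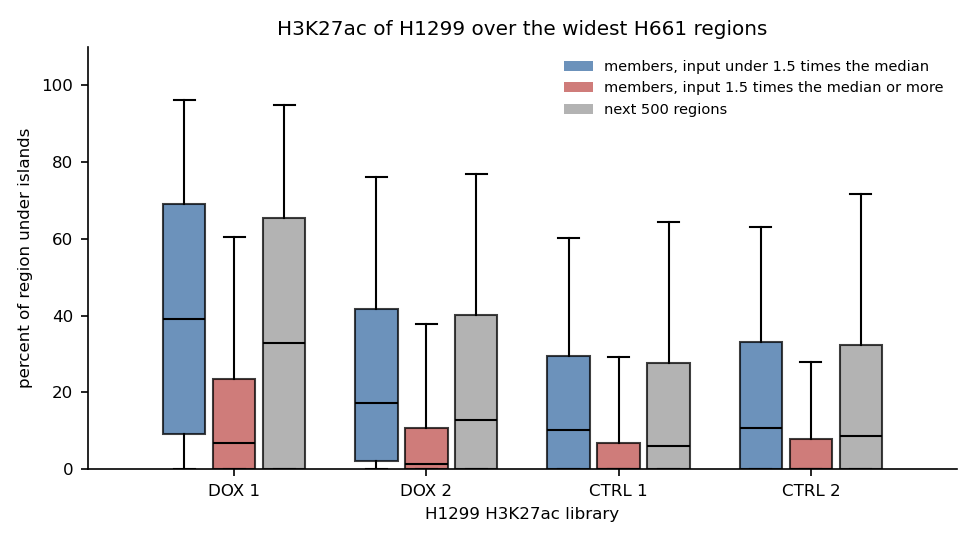
Percent of a region under H3K27ac islands of each H1299 library, for members by their input in H661 and for the next 500 regions. Boxes span the quartiles with the median as a line, and whiskers reach the 5th and 95th percentiles. DOX replicate 1, the library with most reads in islands, is highest in each set, and members with input of 1.5 times the median or more are lowest in each library.

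Few of the 110 domains with no H1299 island held a coding start. Only 11 of them (10.0%) held a protein-coding start and 20 (18.2%) a DPPA2/4 peak. They included the third widest member near SALL4, the 23.1 kb member with the start of COL5A2, a chain of collagen V, a 24.8 kb member 22.5 kb from that start, and the 35.5 kb member at CCNP, and 25 of them lay on chromosome 5. At the other end, no member was covered over 90% in all 4 H1299 libraries. The fullest was the NEAT1 member, 11.7 kb, with 88.0% in each DOX library, against 86.3% and 82.1% in the CTRL libraries. NEAT1 is the RNA scaffold of paraspeckles. The LMNA member, 18.0 kb around the gene of lamin A and C, had 98.9% and 93.3% in DOX, against 81.7% and 82.8% in CTRL. The 40.8 kb member of MALAT1, a nuclear speckle RNA, had 96.1% and 77.2% in DOX, against 74.3% and 77.0% in CTRL. The 10 fullest also included 2 members of histone genes on chromosome 6, the PLEC member and the MIR23AHG member.

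The same rule applied to H1299 gave narrower domains, with medians of 7.6 kb over the 500 widest in DOX and 5.3 kb in CTRL. Of the H661 members 75 (15%) overlapped a DOX domain and 78 (15.6%) a CTRL domain, which were 17.2% of the DOX domains and 18.0% of the CTRL domains. Those shared by both conditions numbered 61. They include the ID1, HOXC, MALAT1, ZNF217, LMNA, IRF2BP2, BCL9L, MNT, JUNB and ID3 members.

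The libraries differed in the reads that lay in islands. Their full sequencing depth is not known, and it bears on each comparison of cover. In 1e6 reads within islands, DOX replicates 1 and 2 held 2.99 and 0.996, against 0.897 and 0.811 in CTRL replicates 1 and 2. Both DOX covers exceeded both CTRL covers in 208 members (41.6%), and both lay below in 2 (0.4%). The share with higher DOX cover was 33.2% in the next 500 and 14.1% in all other regions, where many regions had no island at all. The part of depth in these shares, and that of the separate DOX and CTRL inputs, was not tested. Among list genes, the ID1 member was covered over 71.7% and 35.8% in DOX, against 27.8% and 21.8% in CTRL. The BCL2L1 member had 67.7% in each DOX library, against 16.2% and 9.09% in CTRL. The DLX2 member had 82.4% and 57.4% in DOX, against 25% and 34.3% in CTRL. In these 3 members both DOX covers lay above both CTRL covers, and so did those of HOXC, with 52.2% and 30.2% in DOX, against 25.3% and 26.2% in CTRL. The reads in the tested region of the HOXC member did not show this, with 1496 and 1383 CPM (counts scaled to the reads in islands) in DOX, against 1476 and 1565 in CTRL, a log2 change of -0.08 (edgeR adjusted p = 0.999). The BCL2L1 and DLX2 members held no tested region, so their cover has no comparison of reads beside it. JUNB, a subunit of AP-1, did not separate the groups, with 94.7% and 54.1% in DOX, against 59.4% and 51.9% in CTRL.

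Reads were therefore compared within islands. Counts of the 3317 H1299 regions covered at least 50% in each of the 4 libraries were tested with edgeR's quasi-likelihood test, with the replicate as a block. The libraries were scaled on these same counts, which sets the middle of all tested regions near a log2 change of 0. A change shared by most regions could therefore not show in this test. Of all tested regions 0% were called higher and 0% lower where a call needed an adjusted p under 0.05 together with a log2 change of at least 0.5 in size. Among the 128 tested regions that overlap 107 of the members, 0 were called, and 7 had an unadjusted p below 0.05 (5.47%), against 189 of all regions (5.7%). DESeq2 called 0 of them as well, with 0 at an unadjusted p below 0.05. The log2 change of DOX over CTRL in the 128 ran from -0.56 to 0.52 with a median of 0.06, and the median standard error was 0.18. Over all regions the median was 0.00, a value that the scaling sets. The log2 change was above 0 in 80 of the 128 (62.5%), against 50.3% of all regions. Both DOX libraries exceeded both CTRL libraries in 27 (21.1%), against 16.5% of all regions, and both lay below in 8 (6.25%), against 12.8%. The tested regions covered 8.83% of the length of the members.

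The lowest p among them was in the PER1 member, PER1 being a repressor of the circadian clock. The region there had 990 and 848 CPM in DOX, against 849 and 482 in CTRL, with a log2 change of 0.49 ± 0.18 (SE, 2 libraries each, edgeR adjusted p = 0.569). The lower DOX library stood at the level of the higher CTRL library. The KLF9 member, around the gene of a glucocorticoid-induced zinc finger factor, held 2 tested regions. In the first, the values were 474 and 367 in DOX, against 282 and 305 in CTRL. Its log2 change was 0.52 ± 0.21 (edgeR adjusted p = 0.642), and the groups did not overlap. In the second they were 609 and 639 in DOX, against 617 and 618 in CTRL, with a log2 change of 0.01.

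One stretch of the ID1 member lay outside that test because of the cover required. At chr20:31588001-31599700, upstream of the start of ID1, islands held 466 and 113 reads in DOX, against 15 and 14 in CTRL. They covered 98.3% and 36.8% of the stretch in DOX, against 5.13% and 5.98% in CTRL. With an island of any length in every library as the only limit, edgeR called 1 of 376 regions over members, this stretch. Over all regions it called 3 of 10335. Regions with no CTRL island were not fitted. The CTRL islands covered little of the stretch, and its CTRL counts are set by where islands were called. Its fold change and p are therefore not given as a result. Next to it, the region with the ID1 start had 1501 and 1281 CPM in DOX, against 1295 and 958 in CTRL, with a log2 change of 0.31 ± 0.16 (edgeR adjusted p = 0.869).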

How the data were processed

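ChIP-seq was done in H661 cells and in H1299 cells given DOX or water. Per the study's methods, the authors trimmed reads with Trim Galore 0.6.6, aligned them with BWA 0.7.13 to hg38 and processed them with SAMtools 1.9, Picard 2.6.0 and deepTools 3.5.0. They called islands against input with EPIC2 (bins of 100 bp, 1 gap, FDR 0.05) in each library, and narrow peaks with MACS2. The deposited island lists give the ChIP and input read counts in each island, the log2 fold over input, a score made from that fold, and a p-value with its FDR. The deposited peak lists give the fold enrichment at the summit, and the −log10 p and q of each peak.

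Here, peaks were kept at a fold above 2 and q below 0.05, DPPA2/4 consensus peaks needed more than 25% overlap of each peak, and marks used islands with log2 fold above 1. Shares have 95% Wilson intervals and rates exact Poisson intervals. H1299 H3K27ac counts were tested with edgeR 4.0.16 (TMM, quasi-likelihood test, Benjamini-Hochberg adjustment, replicate as a block as in the study's methods), with DESeq2 1.42.0 as an alternative. TMM factors came from the island counts tested, whereas the study took them from counts in large bins over the whole genome. The replicate differences of DOX and of CTRL correlated at 0.26 over 3317 regions. Library depth is known only as reads in islands, in units of 1e6 reads 2.31 and 6.30 for H661 H3K27ac.

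Genes were named if they started in the 20 widest members, came from the gene lists, or lay in members with most DPPA2/4 peaks, the highest folds, SUZ12 peaks, H3K9me3 or the extremes of H1299 cover. Members and lists were chosen with earlier results of these data known. A choice of members with input under 1.5 times the median was added after seeing the data. The files' peak and island coordinates lay within the hg38 chromosomes of the reference. A few named items are not reported here.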

Additional observations from a re-analysis of the deposited data

How the results depend on the processing

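Of 135 alternative values, 90 stayed within the limit set for them. For counts of members the limit was a factor of 1.5 either way, and for the DOX test no call. For shares of length it was the standard deviation between the replicates of the mark, which is wide where replicates differ. Below, covered means at least 50% of a member under H3K27ac islands in both libraries of an H1299 group. Joining pieces only where they touch gave 6 members with SUZ12, 153 covered in DOX and 90 in CTRL. Joining within 3 kb gave 25 with SUZ12, 38.0% of length under H3K4me1, 25 covered in DOX and 6 in CTRL. The widest joining gave 230 with KDM2A, 68 with SUZ12, 395 with a coding start, 25% H3K4me1, 3 covered in DOX and 1 in CTRL. Islands with log2 fold above 1 gave 6 with SUZ12 and 48.7% H3K4me1. Only regions with input under 1.5 times the median, an alternative chosen after seeing the data, gave 2 with SUZ12, 17.7% H3K36me3, 103 covered in DOX and 45 in CTRL, and shared 302 of 500 regions with the members. More than 50% peak overlap gave 147 members with DPPA2/4, and a fold above 4 gave 7 with SUZ12. Marks at log2 fold above 2 covered 14.5% (H3K4me1), 1.52% (H2AK119ub) and 4.39% (H3K36me3). H3K36me2 fell from 5.39% to 0.100% and H3K9me3 from 0.989% to 0.107%. Both counted as within the limit, as their replicates lay far apart. A minimum of 25% gave 141 in DOX and 96 in CTRL, 75% gave 19 and 2, and islands as deposited gave 44 in CTRL. The causes were not tested.

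Leaving out 1 replicate gave 244 to 348 members with DPPA2/4, 111 to 141 with KDM2A, 14 to 26 with SUZ12 and 238 to 312 with a coding start. It gave 32.8% to 58.4% H3K4me1, 20.4% to 34.4% H3K36me3, 7.35% to 23% H2AK119ub, 5.13% to 23.7% H3K36me2 and 0.674% to 8.88% H3K9me3. Members covered in DOX ran from 16 to 146 (146 without DOX replicate 2) and in CTRL from 6 to 39 (39 without CTRL replicate 1). With H661 H3K27ac replicate 2 alone, 16 were covered in DOX and 6 in CTRL. In the DOX test, leaving out 1 library leaves 1 in its group, assumed to vary like the others, so calls are not given. Without DOX replicate 2 the region at ARHGEF2, picked out by that fit, had a log2 change of -1.30. With an island of any length in every library as the only limit, 1 of 376 regions over members was called, that upstream of ID1. Over all regions 3 of 10335 were called. The CTRL islands covered 5.13% and 5.98% of the stretch upstream of ID1. Without the replicate block 0 regions were called, with 2 of 128 at an unadjusted p below 0.05, against 85 of 3317 over all regions.

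Regions covered under 50% in any H1299 library were not tested, which leaves most member length outside the test. With 2 libraries a group, the median half-width of the 95% interval of a log2 change was 0.36 before any adjustment. Larger changes also missed the call, as at KLF9 (log2 0.52, edgeR adjusted p = 0.642).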
